A study of Homo sapiens with 117 samples.

Results

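CTCF binding was examined at the clustered protocadherin genes, 53 genes on the forward strand of human chromosome 5 (15 PCDHA, 16 PCDHB and 22 PCDHG). Every CTCF peak with its summit in the 740 kb that hold the clusters (GRCh38) was taken from 24 deposited peak lists, and summits within 100 bp were joined into sites. A site was kept as recurrent when at least 4 lists had it, and was assigned to the nearest start site of a member gene. This gave 79 recurrent sites of 329442 in the genome, of which 40 were present in all 24 lists (28824 in the genome). The first and the last of the 79 had their summits at 140786092 and 141512512 of chromosome 5. Members were chosen by position, the recurrence rule used the presence of a summit, and strength was tested only at sites present in all 24 lists.

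The data are CTCF ChIP-seq of DIvA cells, an osteosarcoma line derived from U2OS. All cells carry the restriction enzyme AsiSI fused to an estrogen receptor domain, and 4-OHT (300 nM, 4 h) brings the enzyme to the nucleus, where it cuts DNA. IDH1 WT or IDH1 R132H was introduced by lentivirus, and the lists are IDH1 WT without 4-OHT (3 lists, replicates 2 to 4) and with it (4), and IDH1 R132H without (4) and with it (4). IDH1 R132H cells that also carried the TET1 catalytic domain (TET1 CD) gave 2 lists in each treatment, and those with the catalytically dead form (TET1 dCD) gave 3 without and 2 with 4-OHT. The labels do not say whether replicates were separate cultures, so the p-values measure only the spread between these lists. The paper states 2 biological replicates for the CTCF ChIP-seq, and its reporting summary gives 2 and also 2 to 4. Whether some of the samples compared below share a culture cannot be told.

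Protocadherins of the clusters are adhesion proteins of the cell surface, best known for giving neurons distinct surface identities. In the alpha and gamma clusters each variable first exon has its own promoter and is spliced to shared constant exons, whereas each beta gene is a single coding exon. Most of these promoters hold a conserved sequence element that CTCF binds, and many alpha genes have a further CTCF site inside the first exon. CTCF and cohesin hold loops between sites that point towards each other, and at these clusters the loops join promoters to distal enhancers such as HS5-1, which lies between the alpha constant exons and PCDHB1. CpG methylation lowers CTCF binding at many sites, and IDH1 R132H makes 2-hydroxyglutarate, which inhibits the TET enzymes that remove methylation. The comparison of IDH1 R132H with WT asks whether CTCF occupancy differs with the mutation, and that of TET1 CD with dCD whether TET activity alters it.

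Several lists stood apart from their labels or from independence. The run names written inside the lists give the opposite genotype to the labels in all lists of IDH1 WT and IDH1 R132H without 4-OHT. For TET1 dCD replicates 1 and 2 without 4-OHT they give TET1 CD with 4-OHT. Groups below are those of the labels, and values with groups by run name are given beside the results. In 6 pairs of lists of a condition the reads differed by no more than counting noise, and each pair was averaged, which leaves 18 samples. Some pairs were closer than counting noise, at which the variance ratio is 1. The ratio was 0.651 for IDH1 WT replicates 3 and 4 with 4-OHT and 0.671 for TET1 CD with 4-OHT. It was 0.912 for IDH1 R132H replicates 3 and 4 without 4-OHT. Whether such lists share reads was not tested. The 2 TET1 CD lists without 4-OHT also agreed within noise (variance ratio 0.987) but were kept apart, because that condition has no other pair to set against them. Averaging them too, an alternative added after seeing the data, left the 13 calls without 4-OHT and the 0 calls for TET1 CD against dCD among the 40 sites, and lowered the share of all sites called in the latter from 0.368% to 0.00694%. That averaging lowered the calls between the genotypes with 4-OHT from 18 to 14 (35% of the 40, beside 44.7% of all sites). IDH1 R132H replicates 3 and 4 without 4-OHT also agreed within counting noise with a TET1 CD list without 4-OHT (variance ratios of 0.997 and 1.00). IDH1 WT replicates 3 and 4 without 4-OHT had variance ratios of 1.058 and 1.052 with IDH1 R132H replicate 4 with 4-OHT, and of 7.27 to 8.91 with IDH1 WT replicates 1, 3 and 4 with 4-OHT (3.75 and 3.82 with replicate 2). IDH1 WT replicate 2 with 4-OHT had a ratio of 1.062 with IDH1 R132H replicate 2 without it. Sequencing depth, estimated from the background of each list and given in M reads, was 22.7 to 35.1 M in IDH1 WT and 44.3 to 63.2 M in IDH1 R132H without 4-OHT, and 70.9 to 80.0 M in WT and 23.7 to 34.6 M in R132H with it. The shortest peak, which peak calling sets from the fragment length, was 124 to 128 bp against 144 to 150 bp without 4-OHT, and 143 to 191 bp against 121 to 127 bp with it. Neither quantity overlapped between the genotypes at either treatment, so genotype, depth and fragment length cannot be told apart there. Neither overlapped between the treatments within either genotype, so treatment, depth and fragment length cannot be told apart either.

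The promoter sites carried sequences that were alike within a cluster and differed between clusters. In 41 genes a recurrent site had its summit between 200 bp before and 50 bp after the start site, and in 39 of these the letters CGCT occurred on the gene's strand within 50 bp of the summit. Windows of 30 bases follow for genes of each cluster, on the forward strand with CGCT in capitals. They are shown because CGCT lay close to the summit at most of these promoters. The alpha promoters are followed by the beta and the gamma promoters.
PCDHA1, chr5:140786088-140786117: tggccacatgatgtCGCTgtacaccacaaa
PCDHA2, chr5:140794783-140794812: tagccacatgatgtCGCTgtccaccataga
PCDHA6, chr5:140827899-140827928: gagccgcatgatgtCGCTgtctaccatgaa
PCDHA10, chr5:140855843-140855872: aagccaccggatgtCGCTgtcgtccacaaa
PCDHB2, chr5:141094546-141094575: gagacgcggggtggCGCTgcagccttagaa
PCDHB5, chr5:141135181-141135210: aggacgcctggtggCGCTgcaggctaagag
PCDHB7, chr5:141172568-141172597: aaaacgcaaggtggCGCTgctggctaaaaa
PCDHB10, chr5:141192301-141192330: aggccacacggtggCGCTgcaggctaaaga
PCDHB12, chr5:141208645-141208674: gagacgcgtggtggCGCTgcaggataatat
PCDHGA3, chr5:141343769-141343798: aggcctcttagtgtCGCTgttgaccactca
PCDHGA4, chr5:141354962-141354991: aagactctgggtgtCGCTgttcaccaatca
PCDHGA6, chr5:141373837-141373866: aggactctaagcgtCGCTgttgaccaacct
PCDHGB2, chr5:141359923-141359952: aaacctctgagcgtCGCTgttggtcaaaag
PCDHGB4, chr5:141387619-141387648: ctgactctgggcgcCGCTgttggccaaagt

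Patterns read from these windows were counted on both strands, as a description, since they were written after the windows had been seen. CGCTG was within 50 bp of the summit at 5 of 8 alpha, 13 of 15 beta and 17 of 18 gamma promoter sites. It was at 17.3% of the 28784 sites elsewhere in the genome that were in all 24 lists. Of 35116 RefSeq promoters 48% held it. Promoters were searched over their whole RefSeq sequence, a longer stretch than that around a summit, so promoter and site shares differ in the length searched. GATGTCGCT was present at 6 of 8 alpha promoter sites and at none of the beta or gamma ones, against 0.233% of sites elsewhere and 0.105% of 35116 RefSeq promoters (GRCh38.p14). GGTGGCGCT marked 14 of 15 beta promoter sites and no alpha or gamma ones, against 2.09% and 0.501%. CGCTGTT, which contains CGCTG, was found at 12 of 18 gamma promoter sites and at 1 alpha and 1 beta site, against 1.31% and 2.26%. CGCT itself contains a CpG, the dinucleotide that is methylated.

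The usual CTCF core consensus was found at few of the same promoters. The 12-base core consensus of CTCF was within 50 bp of the summit on either strand at 1 of the 41 promoter sites, that of PCDHB9. It was at 39.6% of sites elsewhere. Over the whole, longer RefSeq promoter sequences, 10.6% of all promoters and 1.92% of those of member genes held it. A 20-base weight matrix was learnt from strong CTCF sites outside the clusters. It matched 17 of the 40 sites present in all lists (42.5%), against 79.04% of sites elsewhere, at a score that 1% of windows 500 bp away reach. The sites elsewhere included sites that the matrix was learnt from, and the 40 did not, so these shares are not on equal terms. Among these 40, the matrix matched 4 of 4 alpha promoter sites, 6 of 13 beta promoter sites, 0 of 12 gamma promoter sites, 4 of 5 alpha exon sites and 3 of 6 other sites.

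The direction of the matrix matches differed along the region. Of the 28 sites with a matrix match, 25 read on the strand of the genes and 3 on the other strand. These 3 were the pair of sites before PCDHB1 (at -10986 and -9989 bp from its start) and the last site of the region. The windows are shown 5′ to 3′ on the strand of the match, with the 12 bases at the core in capitals, because direction decides which sites can pair in loops. The first 6 read with the genes and the last 3 against them. The PCDHAC1 window holds the core consensus but is below the matrix score, and the PCDHA11 window reaches the score without the full consensus.
PCDHA4 exon, chr5:140807635-140807664, forward: tctcggtttCCACTAGAGGGCgcctcggat
PCDHA7 exon, chr5:140834831-140834860, forward: tctcggtttCCACTAGAGGGCgcgtccgat
PCDHA11 exon, chr5:140869551-140869580, forward: tcgcgttttCCACTAGAGGGAgcttctgat
PCDHA13 exon, chr5:140882716-140882745, forward: actcgatttCCACTAGATGGCgcatccgat
PCDHAC1 exon, chr5:140926603-140926632, forward: gtctctgcaCCCCTAGGCGGCgctgcgctc
PCDHB9 promoter, chr5:141187070-141187099, forward: tgttggaagCCACAAGGTGGCgctgcagac
Upstream of PCDHB1, chr5:141040354-141040383, reverse: gatctttaaCCAGCAGAGGGCgagtcgact
Upstream of PCDHB1, chr5:141041363-141041392, reverse: cctcatctgCCACCAGGTGGCaggtggatc
Gamma 3′ exon, chr5:141512494-141512523, reverse: aggctatggCCACTAGGGGGCgcactgggg

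Recurrent CTCF sites lay at or near most start sites of the clusters, some of them weak. The lists reach far down, and 71.1% to 96.2% of the peaks of a list had a q-value under 0.05. The recurrent sites of PCDHAC2 and PCDHGB3 had 8 to 30 and 6 to 27 reads. The share of other promoters with a recurrent site was not computed. A recurrent site lay within 1 kb of the start site in 48 of the 53 genes, and 38 genes had a peak there in all 24 lists (13 of 15 alpha, 13 of 16 beta and 12 of 22 gamma genes). The 5 genes without a recurrent site were PCDHB1, PCDHGA7, PCDHGA12, PCDHGC4 and PCDHGC5. PCDHGA7 had no peak in any list although its RefSeq promoter holds CGCTGTT. PCDHB1, PCDHGA12 and PCDHGC5 had a peak in 3 lists each and PCDHGC4 in 1. Occupancy was partial at PCDHAC2 (9 lists), PCDHGB3 (5), PCDHGA5 (12), PCDHGA8 (13) and PCDHGA9 (16). Thus 5 of the 12 PCDHGA genes and 3 of the 7 PCDHGB genes lacked a peak in at least 1 list.

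Strength was compared by rank, where 1 is the peak of a list with the highest fold enrichment. Ranks were used because fold values are not normalized between lists. The 79 sites had a median rank of 24378, against 110070 for all recurrent sites, 75020 for 101 sites in the 500 kb on either side and 70421 for 7 sites at the promoters of non-clustered protocadherins. Promoters of CTCF and cohesin genes had 19 recurrent sites with a median rank of 97865.

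**Figure D1:**
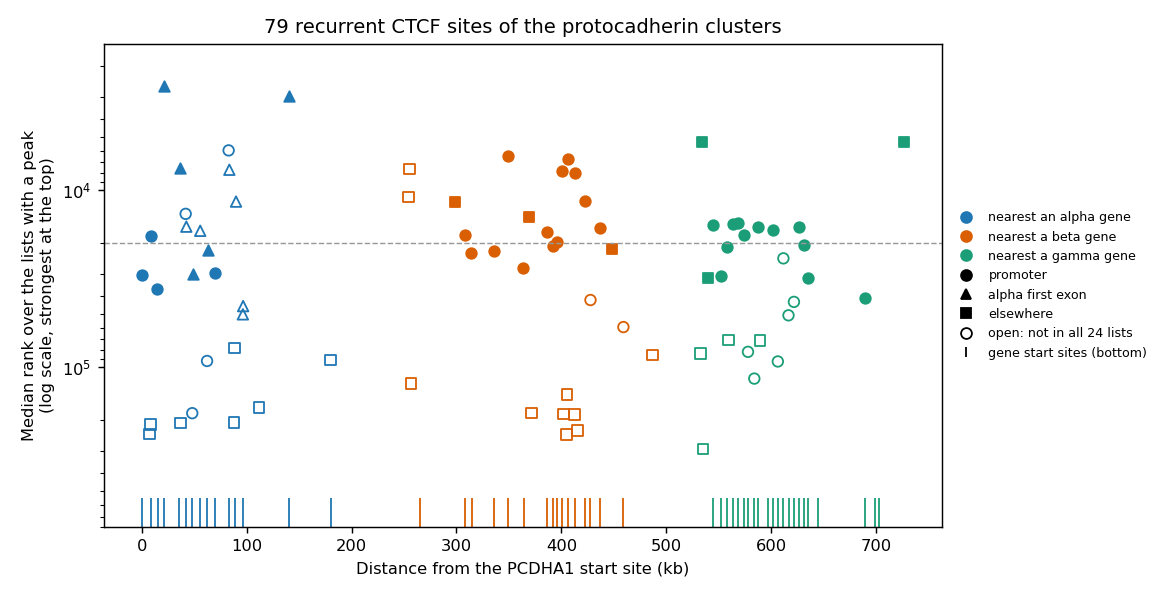
Median rank (log axis, strongest at the top) of the 79 recurrent sites against the distance from the PCDHA1 start site in kb; colour gives the cluster of the nearest gene, shape the place, and ticks at the bottom the 53 start sites. The dashed line marks rank 20000, which 32 sites pass. The PCDHA4 and PCDHAC1 exon sites stand at the top with 2593 and 2938, and the outermost gamma site at 5335.

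Alpha genes differed in where the peak lay. At PCDHA1, PCDHA2, PCDHA3 and PCDHA10 the summit was 48 to 63 bp before the start site in all 24 lists. Their median ranks were 18250 to 36404. At PCDHA4, PCDHA5, PCDHA7 and PCDHA9 the strongest summit was in the coding first exon in all 24 lists. These sites lay 564 to 617 bp after the start. PCDHA7 and PCDHA9 also had a weaker promoter site, recorded in 7 and 8 lists. The PCDHA4 exon had a median rank of 2593 (lowest 1382, highest 4561) and 120 to 319 reads at its summit, and that of PCDHA5 a median of 7533. The exon sites of PCDHA9 and PCDHA7 had medians of 21857 and 29892. At PCDHA6, PCDHA8, PCDHA11 and PCDHA12 lists differed in which summit was the strongest. PCDHA6 and PCDHA11 had a recurrent site both at the promoter and in the exon. At PCDHA8 and PCDHA12 only the exon site was recurrent, and the strongest summit was within 200 bp of the start in 3 lists and 1 list. The promoter summit of PCDHA11 was recorded in 19 lists (median rank 5986) and its exon summit in 5 (7700), while a peak covered both positions in all 24. The same held for PCDHA6 with 18 and 6 lists. PCDHA6 had median ranks of 13666 at the promoter and 16141 in the exon. For PCDHA8 the exon summit was recorded in 21 lists (17034) and for PCDHA12 in 23 (11651). A missing summit at these genes was therefore a moved summit and not a missing peak. PCDHAC1, one of the C-type genes that are not chosen at random, had its site 312 bp after the start in the untranslated part of the first exon, with a median rank of 2938 and 85 to 340 reads. The first site of the region, at PCDHA1, had a median rank of 30214 with 8 to 82 reads.

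Most beta promoters were occupied in every list. The 13 beta promoter sites in all lists had median ranks of 6445 to 27671, with their summits from 96 bp before to 7 bp after the start. PCDHB5, PCDHB10, PCDHB9 and PCDHB11 were the strongest, at 6445, 6734, 7869 and 8025, followed by PCDHB12 at 11521. PCDHB14, PCDHB7, PCDHB2 and PCDHB16 followed at 16419, 17359, 18039 and 19724. Ranks of PCDHB5 and PCDHB10 overlapped across lists (3068 to 8767 and 3233 to 9636), so the order of these neighbours is within their spread. PCDHB13 and PCDHB15 were weaker and had their promoter site in 22 and 21 lists.

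The 12 gamma promoter sites in all lists had median ranks of 15484 to 40955. PCDHGA4, PCDHGB1, PCDHGA1, PCDHGA10, PCDHGA6, PCDHGB4 and PCDHGB2 had median ranks of 15484, 15690, 15867, 16275, 16284, 16884 and 17983. PCDHGB7 and PCDHGA3 followed at 20441 and 20971, and PCDHGA2 and PCDHGA11 at 30534 and 31564. All 12 had their summit 45 to 108 bp before the start site. PCDHGC3, a C-type gene, was the weakest of them, with a median rank of 40955 and 8 to 106 reads.

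Sites away from member promoters included the strongest at the borders. The pair in the HS5-1 interval had median ranks of 10943 (recorded in 10 lists) and 7638 (19 lists), and peaks covered both in all 24. The last site of the region lay in the untranslated 3′ exon shared by the 22 gamma genes, 23431 bp after the start of PCDHGC5, with a median rank of 5335. A site in the untranslated exon of TAF7, a general transcription factor subunit gene between the beta and gamma clusters, had a median of 5346. Another at -10043 bp from the PCDHB2 start, in an intron of PCDHB1-AS1, had 11698, and a site near the pseudogene PCDHB17P, 5696 bp after the PCDHB6 start, had 14191.

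The number of peaks in the clusters depended on how deep into the lists one read. The lists had 59 to 143 peaks there in all. Within the 50000 strongest peaks of a list the count was 43 to 52 in every list. Within the 20000 strongest it was 30, 34 and 34 in IDH1 WT without 4-OHT and 19, 22, 25 and 23 in IDH1 R132H without it. With 4-OHT the 4 WT lists had 24, 23, 23 and 25 and the 4 R132H lists 31, 33, 31 and 33. The genotypes thus did not overlap at this depth, in opposite directions without and with 4-OHT. Over samples the means were 32 ± 2.83 (SD, n = 2) in WT and 21.7 ± 2.52 (n = 3) in R132H without 4-OHT, and 23.7 ± 0.577 (n = 3) and 32 ± 1 (n = 3) with it. For all peaks the means were 81.3 ± 11.6 (n = 3) in R132H and 103.2 ± 1.77 (n = 2) in WT without 4-OHT, a difference of -21.9, and 111.8 ± 13.0 (n = 3) and 96.2 ± 12.2 (n = 3) with it, a difference of 15.7. The mean of both differences, -3.13 peaks with a pooled SD of 10.7, is taken over values of opposite sign. By run name the differences were 21.9 and 15.7, with a mean of 18.8.

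**Figure D2:**
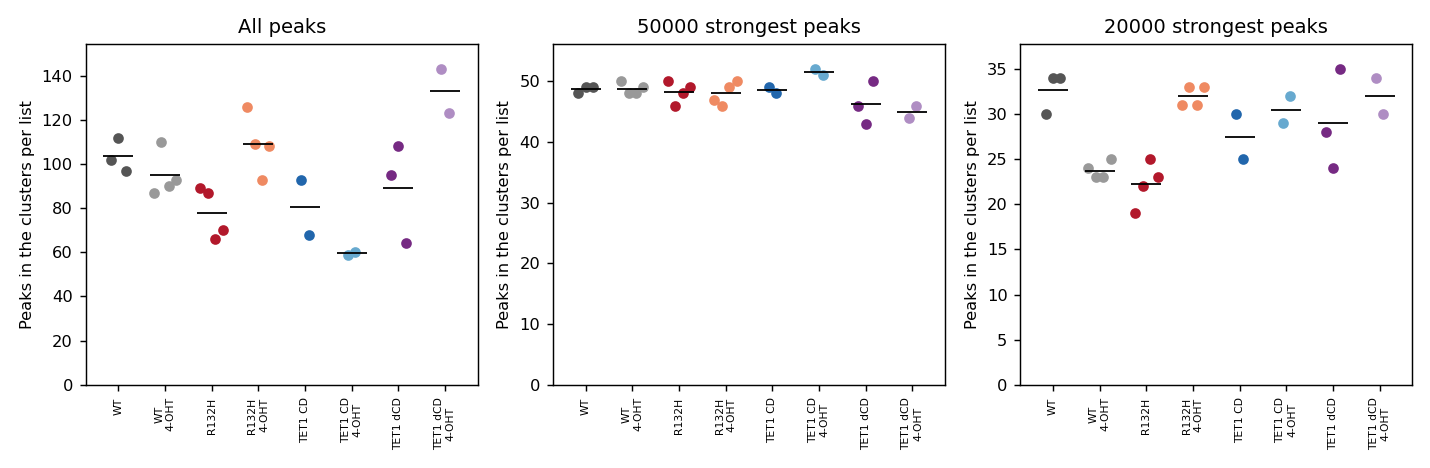
Peaks in the clusters per list for the 8 conditions, among all peaks, the 50000 strongest and the 20000 strongest of each list; points are lists and lines are means over lists. Counts of 43 to 52 at 50000 contrast with 19 to 35 at 20000, where IDH1 WT with 4-OHT and IDH1 R132H without it are low.

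Without 4-OHT, 7 of the 12 gamma promoters ranked lower in IDH1 R132H than in IDH1 WT, and the 3′ gamma site ranked higher. At the PCDHGA6 promoter the ranks were 13926, 11368 and 12854 in IDH1 WT and 39114, 42520, 21819 and 22905 in IDH1 R132H, with 54, 107 and 91 reads against 32, 20, 61 and 56. The genotypes did not overlap, and the difference in -log2 rank, on which a loss of 1 means a rank number 2 times as high, was -1.36 ± 0.23 (SE; adjusted p = 0.000736, limma with Benjamini-Hochberg adjustment over 28824 sites). PCDHGB2 had ranks of 12366, 14029 and 15713 in WT and 26155, 36609, 25420 and 25411 in R132H, a difference of -1.10 ± 0.19 (adjusted p = 0.00095, limma).

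In all, 13 of the 40 sites passed adjusted p 0.05 in limma, against 25.4% of all sites tested. R132H ranked lower at 12 of the 40, against 10.4% of all sites, and higher at 1, against 15%. The 12 were 7 gamma promoters (PCDHGA3, PCDHGA4, PCDHGB2, PCDHGA6, PCDHGA10, PCDHGB7 and PCDHGA11), 4 beta promoters (PCDHB2, PCDHB4, PCDHB7 and PCDHB14) and the PCDHA10 promoter. Their differences ran from -1.36 to -0.52. The gamma promoters of PCDHGA1, PCDHGA2, PCDHGB1, PCDHGB4 and PCDHGC3 did not pass, nor did any of the 5 alpha exon sites. Ranks of the lists did not overlap between the genotypes at 21 of the 40, against 46.9% of all sites. The site that ranked higher was the 3′ gamma site 23431 bp after the start of PCDHGC5, with ranks of 13019, 10724 and 10947 in WT and 1728, 961, 2714 and 4304 in R132H (2.74 ± 0.56, adjusted p = 0.0024). Over the 40 sites the median difference was -0.29, against -0.0033 over all sites and 0.13 over 25 flanking sites, of which 6 passed, all of them higher in R132H. Other sites of the genome with a median rank within 20000 had a median of -0.074.

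These calls turn with the labels. By run name 12 of the 40 passed (30%, beside 24.6% of all sites), 11 of them higher in R132H. The PCDHGA6 difference was then 1.36, with the opposite sign to that by label. Without IDH1 WT replicate 2 there were 7 calls (17.5% of the 40, beside 6.18% of all sites), and without IDH1 R132H replicate 2 there were 8 (20%, beside 15.1%). Without IDH1 R132H replicates 3 and 4, the lists that resemble TET1 CD lists, there were 14 (35%, beside 25%).

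With 4-OHT the same comparison went the other way. PCDHGA6 ranked 31583, 28968, 36381 and 34868 in IDH1 WT and 11987, 11947, 12551 and 13508 in IDH1 R132H, with 53 to 79 reads in WT and 63 to 86 in R132H. Every R132H list was above every WT list in strength, and the difference was 1.38 ± 0.21 (adjusted p = 8.8e-05, limma). PCDHGA4 ranked 24800, 24710, 28557 and 31879 in WT and 15143, 11557, 14700 and 12954 in R132H (0.98 ± 0.16, adjusted p = 2e-04). At the 3′ site after PCDHGC5 the WT lists ranked 2535, 837, 1803 and 1907 and the R132H lists 6525, 7163, 8872 and 6072 (-2.15 ± 0.50, adjusted p = 0.0025).

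Of the 40 sites, 18 passed in this comparison, near the 46.8% of all sites that did. R132H ranked higher at 15, against 24.6% of all sites, and lower at 3. The 15 included 8 of the 12 gamma promoters, the promoters of PCDHB2, PCDHB4, PCDHB7, PCDHB11 and PCDHA2, and the exon sites of PCDHA4 and PCDHA5. Ranks of the lists did not overlap at 21 of the 40 (51.6% of all sites). Lower in R132H were the 3′ gamma site and the promoters of PCDHB8 (-0.44) and PCDHB16 (-0.43). The median over the 40 sites was 0.20, against -0.0014 over all sites, while 11 of 25 flanking sites passed as lower and 1 as higher. Both genotype comparisons rest on separate lists, and 11 member sites passed in both, each of them with opposite signs. Of all sites 5737 (19.9%) passed in both, 5735 of them with opposite signs. By run name 17 sites passed (42.5% of the 40, beside 46.1% of all sites), 14 of them higher in R132H. On the scale of log2 fold enrichment the 3′ gamma site differed by 0.57 without 4-OHT (adjusted p = 0.0294, limma) and by 0.14 with it (adjusted p = 0.5), so its call with 4-OHT was lost and its direction turned, whereas PCDHGA6 differed by -1.78 and 1.76.

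**Figure D3:**
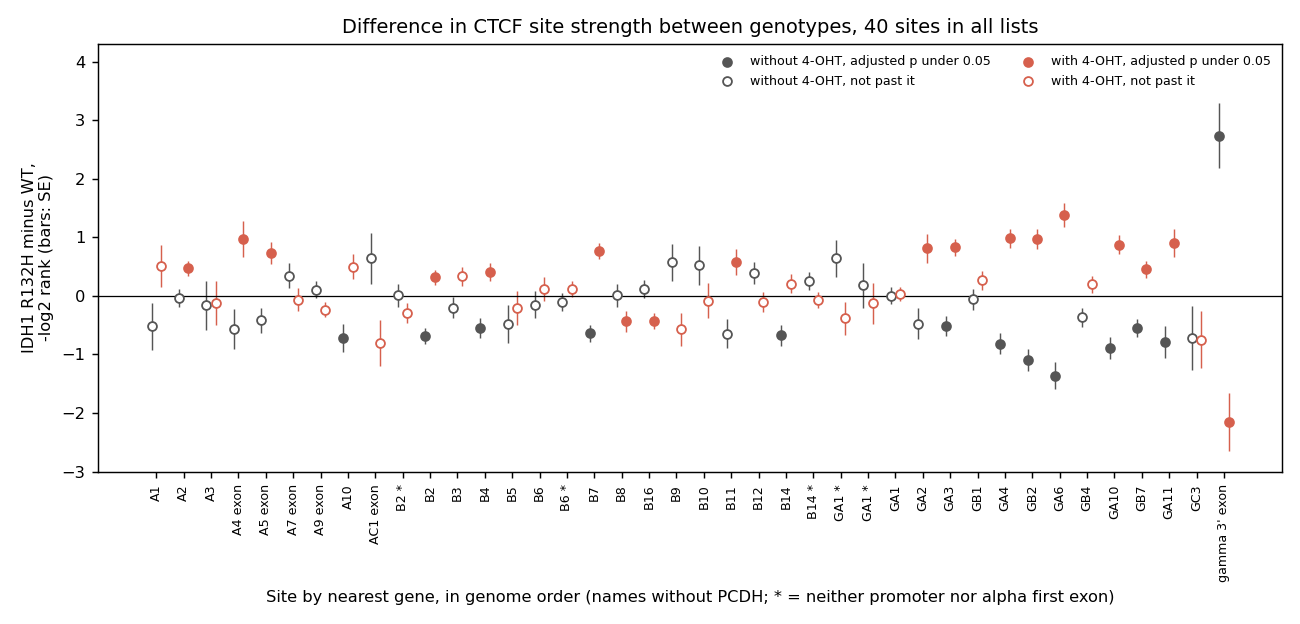
Difference in -log2 rank between IDH1 R132H and IDH1 WT (vertical axis) for the 40 sites in all lists, in genome order, without 4-OHT (grey) and with it (red); bars are SE and filled points passed adjusted p 0.05. Filled gamma promoter points (7 grey and 8 red of 12) are below 0 in grey and above 0 in red, and the 3′ gamma site at the far right is at 2.74 and -2.15. By run name the grey values change sign.

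Change with 4-OHT within a genotype was the counterpart of these values, since it uses the same lists. Depth and fragment length did not overlap between the treatments in either genotype, so treatment cannot be told apart from them. In IDH1 WT 12 of the 40 sites passed, against 42.7% of all sites, with 11 lower and 1 higher after 4-OHT (21.7% and 20.9% of all sites). The 11 were 7 gamma promoters, those of PCDHB2, PCDHB7 and PCDHB14 and the PCDHA5 exon. Ranks of the lists did not overlap at 23 of the 40 (56.9% of all sites). The largest falls were at PCDHGA6 (-1.30 ± 0.23, adjusted p = 0.000479), PCDHGB2 (-1.15 ± 0.19, adjusted p = 0.000301) and PCDHGA4 (-1.03 ± 0.18, adjusted p = 0.00045, limma). In IDH1 R132H 17 sites passed, against 28.2% of all sites, 15 of them higher after 4-OHT (12.5%) and 2 lower (15.7%). Ranks did not overlap at 21 of the 40 (39.8%). PCDHGA6 rose by 1.44 ± 0.21 (adjusted p = 0.000158), PCDHGA10 by 0.88 ± 0.17 (adjusted p = 0.00121) and the PCDHA4 exon by 0.98 ± 0.31 (adjusted p = 0.025). PCDHB9 fell by 0.82 and the 3′ gamma site by 1.97. On the log2 fold scale the 3′ gamma site did not pass in either genotype (0.36 in WT, adjusted p = 0.128, and -0.062 in R132H, adjusted p = 0.786, limma). By run name no site of the genome passed in either genotype (3700 and 967 at an unadjusted p under 0.05). Leaving out IDH1 R132H replicate 1 or 2 without 4-OHT gave 10 or 7 calls in R132H, beside 16.4% of all sites in either case, and leaving out replicate 2 with 4-OHT gave 9, beside 19.7%. All of these were among the 17.

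The change with 4-OHT differed between the genotypes at 23 of the 40 sites, a share close to the 57.0% of all sites, with 18 differences in favour of R132H (28.9% of all sites) and 5 against (28.1%). Among gamma promoters 9 of 12 passed, all in favour of R132H, from PCDHGA6 at 2.74 ± 0.31 (adjusted p = 2.75e-06, limma) downwards. The 3′ gamma site had -4.88, but on the log2 fold scale -0.43, which did not pass (adjusted p = 0.17, limma). By run name none passed.

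**Figure D4:**
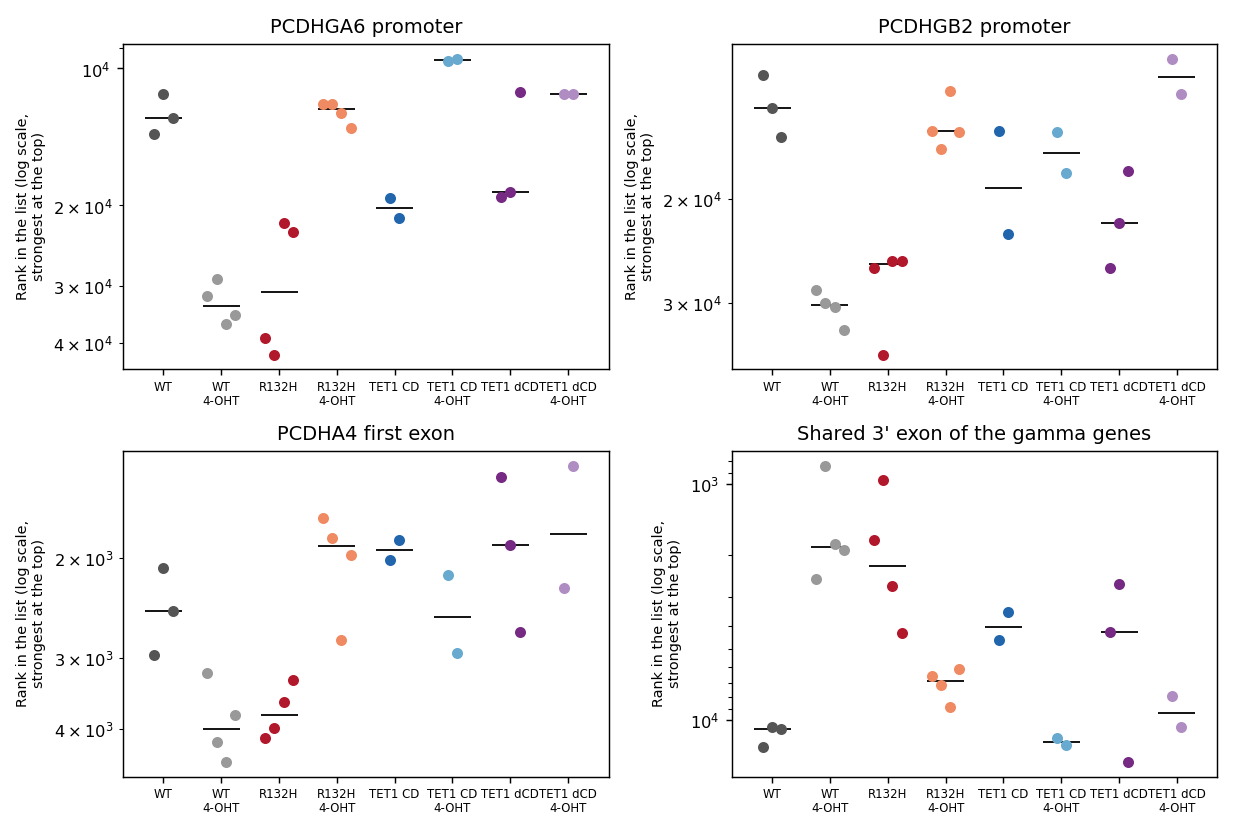
Rank in each list (log axis, strongest at the top) at 4 sites for the 8 conditions; points are lists and lines are medians. The PCDHGA6 promoter ranks between 11368 and 13926 in IDH1 WT without and IDH1 R132H with 4-OHT and from 21819 on in IDH1 R132H without and IDH1 WT with it, the 3′ gamma site shows the reverse, and the PCDHA4 exon stays within 1382 to 4561.

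Some promoters passed in none of the comparisons. PCDHGA1 had a difference of 0.0046 ± 0.14 without and 0.032 ± 0.12 with 4-OHT between the genotypes, and PCDHB5 of -0.48 ± 0.32 and -0.20 ± 0.29. Neither passed in any comparison, which does not show that they stayed the same. In data simulated for the comparison without 4-OHT, with 200 of 28824 sites shifted, 40% of those shifted by 1 were recovered. That share is an average over sites. It was not computed for these promoters, for the other comparisons or for a larger share of shifted sites. PCDHGB1 lies beside the only AsiSI site of the region (GCGATCGC), which is 2356 bp from its promoter summit, the next being 1885 kb outside the region. Its ranks were 16696, 15008 and 17724 in IDH1 WT without 4-OHT and 16285, 18803, 15080 and 14843 with it, a change of -0.0093 ± 0.18 (adjusted p = 0.972, limma). In IDH1 R132H they were 21875, 14865, 15172 and 16191 without and 14709, 12738, 13754 and 14583 with 4-OHT (0.31 ± 0.16, adjusted p = 0.142). Whether AsiSI cut this site was not measured.

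Lists with TET1 constructs differ in depth and fragment length as well. Both TET1 CD lists with 4-OHT (194 bp) and TET1 dCD replicate 3 without it (172 bp) had the longest fragments among them. They ranked PCDHGA6 at 9627, 9521 and 11281. TET1 dCD with 4-OHT (119 and 118 bp) ranked it at 11401 and 11402. In TET1 CD without 4-OHT it ranked 19232 and 21358, and in TET1 dCD replicates 1 and 2 without 4-OHT 19137 and 18642. The lists also differ in construct and treatment, and the part of depth or fragment length in these ranks was not tested.

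TET1 CD and TET1 dCD could not be separated at these sites. Averaged over the treatments, none of the 40 sites passed adjusted p 0.05 in limma, against 0.368% of all sites (0.312% stronger and 0.0555% weaker with TET1 CD). At an unadjusted p under 0.05 there were 2 of the 40 sites and 6378 of 28824. Run names place TET1 dCD replicates 1 and 2 without 4-OHT in the other arm, TET1 CD with 4-OHT. With groups by run name none of the 40 passed, beside 0.135% of all sites. Differences ran from -0.36 to 0.66, with a median of 0.029 against 0.091 over all sites. TET1 dCD replicate 3 without 4-OHT had variance ratios of 5.85 and 6.22 with replicates 1 and 2 of its condition. With TET1 CD replicates 1 and 2 with 4-OHT, in the other arm, its ratios were 1.024 and 1.04. When this TET1 dCD list was left out, the median was 0.127, against 0.115 over all sites. PCDHGB7 (-0.29 ± 0.13) and PCDHGA3 (-0.31 ± 0.14) had the lowest adjusted p, 0.208. At the 3′ site after PCDHGC5 the TET1 CD lists ranked 4598 and 3489 without and 12002 and 12796 with 4-OHT, and the TET1 dCD lists 4245, 2666 and 15118 without and 7979 and 10741 with it. The conditions hold 1 or 2 samples each, since 2 TET1 CD lists with 4-OHT and 2 TET1 dCD lists without it were averaged.

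Presence of a summit was compared over samples, with too few of them for a call. Over both treatments, 6 IDH1 R132H samples and 5 WT samples were compared at the 79 sites by a two-sided Fisher's exact test, and none passed adjusted p 0.05, as none of 329442 sites did (0%; 1837 at an unadjusted p under 0.05, none of them a member). The smallest p that these sample numbers allow is 0.00217, so the test does not say whether presence differed, and the values are a description. PCDHGB3 came nearest, with a summit in 0 of 6 R132H and 3 of 5 WT samples (Fisher's exact p = 0.0606), at a median rank of 116422. The site 27688 bp after the PCDHB15 start, in the interval before TAF7, was found in 3 of 6 R132H and 5 of 5 WT samples (exact p = 0.182).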

How the data were processed

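CTCF ChIP-seq peak lists of 24 samples were analysed in 8 conditions. Per the labels, the authors trimmed reads with cutadapt 1.18, mapped them with Bowtie2 2.3.4.1 to hg38 and made tracks with deepTools, and per the paper called peaks in each sample with MACS2 against input. The study's methods name another Bowtie2 version, and give the MACS2 version and the quality filter in more than one form. The deposited fold enrichment is a ratio of reads at the summit plus 1 to background plus 1, and the authors' −log10 p and −log10 q values follow from the same reads. Reads at the summit were recovered from the steps of the fold (100% whole within 0.1), and depth was estimated from the background, so its absolute size rests on an assumed genome size.

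Members and lists were chosen with earlier results of these data known. Summits of all lists were claimed from the strongest rank down within 100 bp. Lists of a condition whose reads agreed within counting noise (chi-square test over shared summits) were averaged when another pair of that condition differed, and in conditions of 2 lists only when the spread was below counting noise. Sites with a peak in every list were compared with limma 3.58.1 (R 4.3.3) on −log2 rank, with group means of all 8 conditions, a trended prior and Benjamini-Hochberg adjustment over 28824 sites. Tested on simulated data of IDH1 R132H against WT without 4-OHT, with 200 of 28824 sites shifted, 40% were recovered at a shift of 1, 83% at 2 and 97% at 3. Presence was compared by Fisher's exact test (scipy 1.17.1). Annotation was GENCODE 44, and promoters were RefSeq's (GRCh38.p14, 47 of 53 genes matched).

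The text names sites with a median rank within 20000, sites past adjusted p 0.05 (the 10 of lowest p per comparison), the first and last site and genes with no site within 1 kb. Other sites are named in groups or to show what did not pass. The labels give replicate numbers alone, and the data did not settle whether equal numbers pair the samples. For 4-OHT in IDH1 WT, correlations of deviations were 0.209 to 0.343 in 3 pairs of equal number. Between lists of other numbers they were -0.314 to 0.237. These ranges overlapped in the other comparisons too, as for R132H against WT with 4-OHT (0.0837 to 0.295 and -0.333 to 0.326). Alternatives were each list as its own sample, groups by run name, the replicate block, centred log2 fold, 200 bp joining, the 50000 strongest peaks, −log10 q of at least 10 and leaving out each sample. The 92 4C-seq samples and IDH1 WT replicate 1 without 4-OHT were not analysed here.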

Additional observations from a re-analysis of the deposited data

Results flagged for a closer look

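The change in CTCF rank with 4-OHT differed between IDH1 R132H and IDH1 WT, by the interaction term in limma, at 23 of the 40 sites present in all lists, beside 57% of all sites tested. The 10 of lowest p were the promoters of PCDHGA6 (2.74 on the -log2 rank scale), PCDHGB2 (2.07), PCDHGA4 (1.79), PCDHGA10 (1.76), PCDHGA11 (1.68), PCDHB7 (1.40), PCDHGA3 (1.35), PCDHB2 (1.01) and PCDHGB7 (1.00), and the 3′ gamma site after PCDHGC5 (-4.88). On the log2 fold scale the 3′ gamma site did not pass (-0.43, adjusted p = 0.17, limma). No condition has more than 3 samples, so single samples were not tested for standing apart.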

How the results depend on the processing

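Groups by run name changed the results most. Without 4-OHT the 13 calls became 12 with the opposite direction, with PCDHGA6 at 1.36, PCDHGB2 at 1.10, PCDHB2 at 0.69, PCDHGA10 at 0.89, PCDHGA4 at 0.81, PCDHB7 at 0.64, PCDHB14 at 0.67, PCDHGB7 at 0.54, PCDHGA3 at 0.52 and the site after PCDHGC5 at -2.74. The calls for 4-OHT in IDH1 WT, for 4-OHT in IDH1 R132H and for the difference between genotypes fell to 0, and some signs turned. In IDH1 WT these were PCDHGA6 (0.063), PCDHGA10 (0.0026), PCDHB7 (0.033) and PCDHB2 (0.17). In IDH1 R132H they were PCDHGB2 (-0.18), PCDHGA10 (-0.011), PCDHGA4 (-0.046), PCDHB2 (-0.20), PCDHB4 (-0.0069) and the site after PCDHGC5 (0.76). In the difference they were PCDHGB2 (-0.12), PCDHGA10 (-0.014), PCDHB2 (-0.37), PCDHGB7 (-0.095) and the site after PCDHGC5 (0.59). The mean difference in peak number became 18.8. These follow from the exchange of the groups.

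Log2 fold in place of rank gave 20 calls for 4-OHT in IDH1 WT (50% of the 40, beside 65.4% of all sites). On that scale the site after PCDHGC5 was at 0.14 between the genotypes with 4-OHT, and its calls for 4-OHT in either genotype and for the difference were lost (adjusted p = 0.128, 0.786 and 0.17, limma). It moved the median of all sites by -0.17 without and 0.25 with 4-OHT between the genotypes, and the cause was not tested. Taking each list as its own sample gave 1 call for TET1 CD against dCD (2.5% of the 40, beside 20% of all sites). The replicate block gave 2 (5%, beside 26.6%). For 4-OHT in IDH1 WT the replicate block also takes each list as its own sample. It gave 18 calls against 12 (45% of the 40, beside 56.1% of all sites). Separate lists alone gave 17 (42.5%, beside 54.4%). The block turned no direction among the named sites.

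Leaving out 1 sample gave 7 to 14 calls without 4-OHT, 12 to 19 with it, 8 to 15 for 4-OHT in IDH1 WT, 7 to 18 in IDH1 R132H, 18 to 24 for the difference and 0 to 1 for TET1 (1 without TET1 dCD replicate 2 with 4-OHT). Presence gave 0 to 0 and peak number -6.67 to 0.333. Joining within 200 bp, the 50000 strongest peaks and a −log10 q of at least 10 kept each count of calls within 1.5 times. Averaging the TET1 CD lists without 4-OHT too kept them within this limit, with 14 calls against 18 between the genotypes with 4-OHT. This and the number among the 50000 strongest were chosen after seeing the data. Low depth limits the weak sites, which rest on few reads.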
